A study of Saccharomyces cerevisiae with 32 samples.

Results

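The transcripts of 10 genes of branched-chain amino acid synthesis were followed through a cycle of the respiratory oscillation of budding yeast: ILV2, ILV6, ILV5 and ILV3, LEU4, LEU9, LEU1 and LEU2, and BAT1 and BAT2. They were chosen by gene symbol in the array annotation. All 10 were found among the 5449 S. cerevisiae genes of the array, each with 1 probe set, none of whose names marks it as matching several genes, and all 10 lay above the background. The samples were 32 time points of a single continuous culture of CEN.PK113-7D, a haploid MATa laboratory strain, grown on glucose medium at 30 °C and pH 4 and oscillating with a period of about 2 h. Samples were taken every 4 min, and the phase angle given in the labels advanced by 12.5° per sample, with a full turn in 115 min. There was 1 group with no replicate cultures and no repeated time points, so errors and p-values below cover scatter along 1 time course and no variation between cultures. The labels do not place the zero of this angle on the oxygen trace.

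Isoleucine, valine and leucine are made in yeast by a route that begins in the mitochondrion. The enzymes Ilv2 with its regulatory subunit Ilv6, Ilv5 and Ilv3 act in turn on pyruvate or 2-oxobutyrate and give the keto acids of valine and isoleucine. Leu4 and Leu9 divert the valine keto acid towards leucine by making α-isopropylmalate, which the cytosolic enzymes Leu1 and Leu2 carry on, and the aminotransferases Bat1 of the mitochondrion and Bat2 of the cytosol exchange amino groups between the keto acids and the amino acids. The transcription factor Leu3 is activated by α-isopropylmalate and regulates several of these genes, and the general amino acid control factor Gcn4, itself regulated mainly through translation of its mRNA, acts on many of them.

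Per array, probe sets for S. cerevisiae had a median deposited signal of 1436 to 2340.2. Those for S. pombe, present on each array and used as background, had a median of 5.4 to 9.8. All 6 MATa genes looked for (STE2, MFA1, MFA2, STE6, BAR1 and AGA2) were well above background, with median deposited signals from 3803 to 11095. Of the MATα genes looked for, 2 could be matched by symbol, and neither was at background: the median signal was 648 for STE3 and 1065 for SAG1. LEU2, a common marker gene in auxotrophic strains, was expressed throughout, as were URA3 and HIS3. Signals below are quantile-scaled unless called deposited, and levels, ranges and changes are on the log2 scale.

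In 8 of the 10 transcripts the fitted peak lay between 18° and 73°. Of all genes that varied with phase by at least 2-fold in the fit, 46.6% peaked in the wider window from 0° to 90°. Only 4 of the 10 varied by that much, with peaks from 40° to 43°. The share of all varying genes that peaked in this window, whatever their range, was not counted. In 7 of the 8 transcripts the fitted trough lay between 133° and 170°. That of ILV6 lay at 187° with quantile scaling and at 308° with median or poly-A scaling. BAT2 had the opposite course with quantile scaling, but not with poly-A scaling, where its peak lay at 76° and its variation did not pass (limma adjusted p = 0.156). LEU4 moved least. In bulk samples such as these, a change in the share of cells that hold a transcript and a change in its level per cell cannot be told apart. Among the 10 the swing was widest for LEU9, with a fitted range (maximum minus minimum of a curve with 2 harmonics) of 3.98 ± 0.15 (SE, n = 32). It was followed by BAT1 with 1.80 ± 0.12, ILV3 with 1.68 ± 0.08 and ILV2 with 1.13 ± 0.07. The other 6 ranged from 0.18 for LEU4 to 0.78 for ILV5. All 10 passed the test of variation with phase (limma moderated F test, adjusted p from 4.85e-19 for LEU9 to 0.0085 for LEU4), as did 87.6% of all 5377 genes tested. A fitted range of at least 1, a 2-fold change, was reached by 4 of the 10, against 40.7% of all genes, and the median range was 0.74 for the 10 and 0.84 for all genes. Neighbouring samples resembled each other. With the autocorrelation corrected for the fitted terms, a setting added after the data were seen, 60.1% of all genes passed and LEU4 no longer did (limma adjusted p = 0.712), while the other 9 did (adjusted p up to 0.0219). The SEs of the fitted ranges printed here are those of the smaller autocorrelation; with the corrected one they were 1.71 to 2.18 times as large for the 10, for LEU9 0.26 in place of 0.15, and up to 2.58 times as large for the other genes listed.

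**Figure D1:**
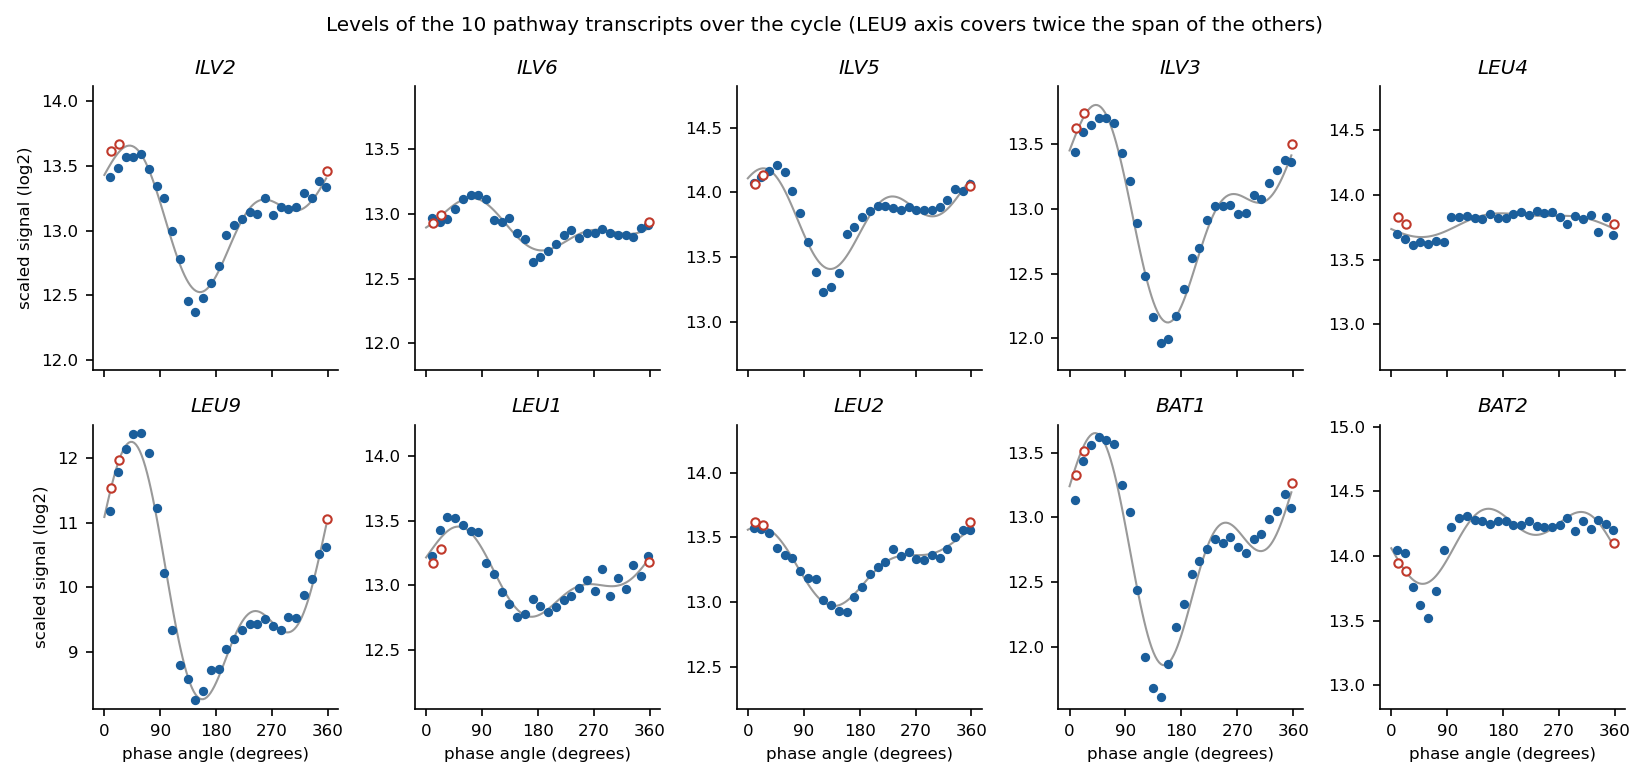
Scaled signal (log2) of each of the 10 transcripts against phase angle in degrees, 1 point per sample, with the fitted curve of 2 harmonics in grey; open red points are the last 3 samples, 1 turn after the first 3. LEU9 spans the widest range, 3.98 in the fit, and with this quantile scaling BAT2 is lowest at 59.2°, where LEU9 is highest; the axis of LEU9 covers a wider span than the others.

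The acetolactate synthase genes opened the pathway with unequal courses. ILV2, encoding the catalytic subunit, had a lowest scaled signal of 5280 at 146°, a median of 9530 and a highest of 13040 at 23.8°. ILV6, encoding the regulatory subunit through which valine inhibits the enzyme, went from 6348 at 171° over a median of 7579 to 9084 at 71.7°. The catalytic subunit thus changed 2.47-fold between its extreme samples and the regulatory subunit 1.43-fold. The highest sample of ILV2 was the last of the series, and before the last 3 samples its highest was 12371.5 at 59.2°. The fitted peak of ILV2 lay at 40° ± 3.5 (SE of a jackknife over 8 blocks of 4 neighbouring samples) and that of ILV6 at 73° ± 4.6. With poly-A scaling these peaks lay closer together, at 51° and 65°. The fitted troughs of ILV2 and ILV6 lay at 154° ± 3.6 and, with quantile scaling, 187° ± 10.2.

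The next enzymes, which are shared by the valine and isoleucine branches, differed in the depth of their minimum and, with quantile scaling, in its timing. ILV5, encoding acetohydroxyacid reductoisomerase, a protein that also helps to maintain mitochondrial DNA, had a lowest signal of 9613 at 122°, a median of 15170 and a highest of 19020 at 46.8°. ILV3, encoding the iron-sulfur enzyme dihydroxyacid dehydratase, went from 3986 at 146° over 8722 to 13680 at 23.8°, a 3.43-fold difference. This highest sample was the last of the series, and before the last 3 samples the highest was 13365.5 at 59.2°. With quantile scaling ILV5 was at its lowest 2 samples before ILV3 and had recovered sooner. Its level left the midpoint between its highest and lowest sample at 90.8° and regained it at 169°, 25.1 min later. For ILV3 these points lay at 110° and 218°, 34.4 min apart, and for ILV2 at 108° and 205°, 31.1 min apart. Differences below the sampling step of 12.5° are not resolved. With poly-A scaling the fitted troughs of ILV5 and ILV3 lay at 151° and 163°, closer than that step. With quantile scaling they lay at 133° and 158°.

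The 2 α-isopropylmalate synthase genes, which start the leucine branch, were the most unlike pair. LEU9 had a lowest signal of 302.8 at 146°, a median of 740.4 and a highest of 5341 at 59.2°, a 17.6-fold difference. LEU4 lay between 12530 at 34.3° and 15020 at 234° with a median of 14480 and differed by less between its extreme samples than any other member. By size of fitted range LEU9 was number 151 and LEU4 number 5178 of the 5377 genes. LEU9 was high for a short part of the cycle and low for the rest: it fell below its midpoint at 95.4° and regained it at 339.7°, 78.3 min later. Between these points it reached a plateau, with a mean log2 level of 9.42 ± 0.07 (SD, n = 4) from 246° to 284°, well above its level of 8.53 ± 0.24 from 146° to 184°. LEU1 and ILV6 were also below their midpoints for long, 74.1 and 65.3 min until they first regained them. Both lay just below their midpoints at 283.6°, and LEU1 was below again at 346°, so these 2 times are loosely set. ILV2, ILV3 and BAT1, by contrast, dipped for 31.1 to 34.4 min and spent most of the cycle above their midpoints. ILV5 and LEU2 were below theirs for 25.1 and 41 min. This contrast in shape was not tested.

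The later leucine genes moved less. LEU1, encoding the cytosolic iron-sulfur enzyme isopropylmalate isomerase, went from 6929 at 146° over a median of 8568 to 11810 at 34.3°. LEU2, encoding β-isopropylmalate dehydrogenase, went from 7772 at 159° over 10420 to 12580 at 358°. Both changed by less than 2-fold between their extreme samples (1.71-fold and 1.62-fold). The fitted peak of LEU2 lay at 18° ± 6.1 and that of LEU1 at 52° ± 8.5; with poly-A scaling they lay at 47° and 58°, closer than the sampling step. The highest sample of LEU2 belonged to the last 3 samples, so it came before that of LEU1 by phase angle but not in time. The mean log2 level of LEU2 already stood at 13.34 ± 0.08 from 46.8° to 84.2°, down from 13.56 ± 0.02 in the preceding 4 samples. LEU1 was at 13.45 ± 0.05 and 13.35 ± 0.15 in the same 2 sets.

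With quantile scaling the aminotransferase genes ran against each other; with poly-A scaling both were at their highest in the same part of the cycle (fitted peaks at 49° and 76°). BAT1, for the mitochondrial enzyme, had a lowest signal of 3127 at 146°, a median of 7429 and a highest of 12610 at 46.8°, a 4.03-fold difference. BAT2, for the cytosolic enzyme, had its lowest signal, 11770, at 59.2° and its highest, 20290, at 122°, with a median of 19220. With quantile scaling BAT2 was a flat profile with a single dip. Its mean log2 level lay between 14.24 ± 0.04 and 14.28 ± 0.04 (SD, n = 4) in each of the 5 sets of 4 samples from 96.6° to 334°. From 46.8° to 84.2° it lay at 13.73 ± 0.23. Quantile scaling sets levels by rank, and BAT2 was at percentile 99.8 in brightness. Its deposited signals from 96.6° to 334° ran from 17800 to 21273. The part of the scaling in the narrow plateau was not tested. The fitted peak of BAT2, at 156°, had a jackknife SE of 175° and is not placed by these data. Its trough lay at 50° ± 9.0 with quantile scaling and at 301° with poly-A scaling.

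To compare paired enzymes and subunits, 3 pairs of transcripts were set against each other as a ratio within each array, in which the scaling of the array cancels apart from the uneven stretch of quantile scaling. A ratio of probe set signals has no absolute meaning, and its course alone was tested. The log2 ratio of BAT1 to BAT2 was highest, at 0.08, in the sample at 59.2° and lowest, at -2.66, at 146°, a 6.67-fold difference. The log2 ratio of LEU4 to LEU9 went from 1.23 at 59.2° to 5.56 at 146°, a 20.1-fold difference. That of ILV2 to ILV6 lay between 0.69 at 11.1°, in 1 of the last 3 samples, and -0.52 at 134°, a 2.30-fold difference. Before the last 3 samples its highest was 0.61 at 34.3°. The fitted ranges of the ratios were 2.37 ± 0.15, 4.16 ± 0.18 and 0.92 ± 0.08 (SE, n = 32), and each varied with phase (100000 permutations of the whitened values, adjusted p over the 3 ratios 1e-05, the smallest that the permutations can give). Under the 12 alternatives tried for the ratios the largest adjusted p was 0.00045.

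**Figure D2:**
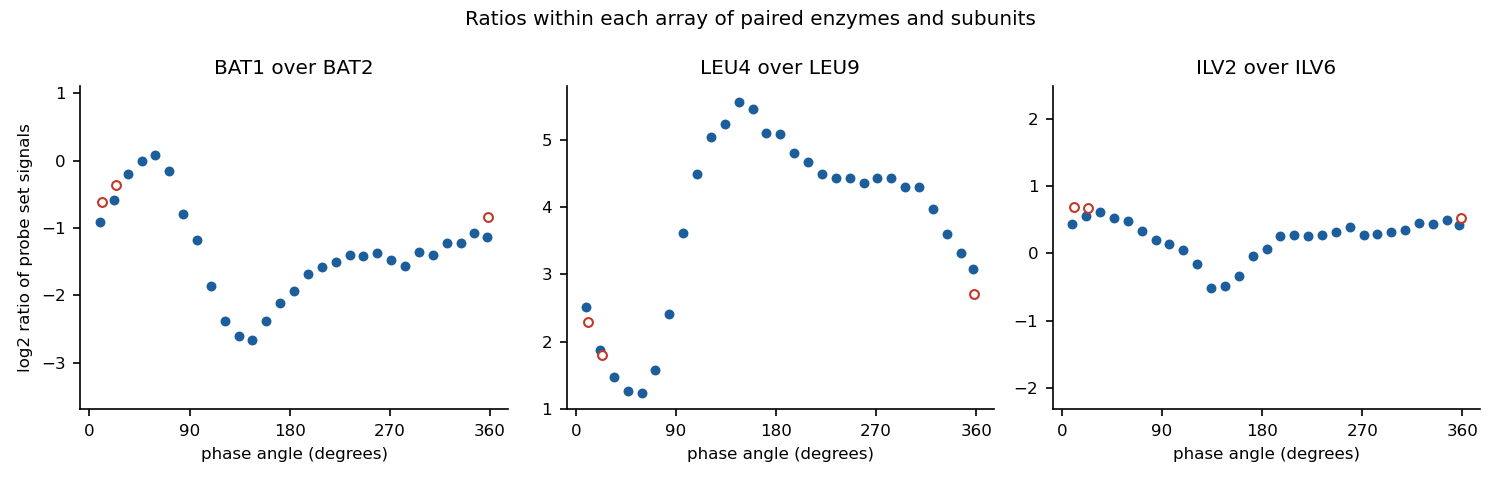
Log2 ratio of the probe set signals within each array against phase angle in degrees for BAT1 over BAT2, LEU4 over LEU9 and ILV2 over ILV6, 1 point per sample, with the last 3 samples as open red points and axes of equal span. The ratio of LEU4 to LEU9 rises from 1.23 at 59.2° to 5.56 at 146°, and that of BAT1 to BAT2 falls from 0.08 to -2.66 over the same samples.

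The levels in the 4 samples at 46.8° to 84.2° were then compared with those in the 4 at 96.6° to 134°, and the passage from one set to the other is called the switch here. Across it 7 of the 10 transcripts fell (limma, adjusted p under 0.05), against 29.5% of all genes. BAT2 and LEU4 rose, as did 35.9% of all genes, but had changes of the opposite sign, -0.19 and -0.57, with arrays scaled by poly-A control transcripts. ILV6 did not pass (-0.12 ± 0.07, limma adjusted p = 0.156). The median change was -0.53 for the 10 and 0.05 for all genes. The 4 samples on each side were neighbours in 1 culture and not replicates, so these p-values describe a step between adjoining stretches of the cycle and are too small where noise in neighbouring samples is alike.

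The step was largest for LEU9. Its scaled signals in the 4 earlier samples were 5284, 5341, 4309 and 2390, and in the 4 later ones 1191, 645.1, 445 and 382.3. No sample of the later set reached the lowest of the earlier set, and the signal fell in each of the 6 steps after 59.2°. Such separation was not counted over all genes. The change was -2.78 ± 0.40 (SE, limma adjusted p = 0.0026), and its steepest single step, from 84.2° to 96.6°, was -1.004 within 4 min.

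BAT1 and BAT2 moved in opposite directions across the same 8 samples, with the exception of poly-A scaling. The signals of BAT1 were 12611, 12417, 12163 and 9745 before and 8446, 5537, 3875 and 3275 after. Those of BAT2 were 12623, 11769, 13545 and 16955 before and 19188, 20075, 20288 and 19910 after. The sets of neither gene overlapped, which was not counted over all genes. BAT1 changed by -1.24 ± 0.28 (limma adjusted p = 0.007) and BAT2 by 0.55 ± 0.11 (adjusted p = 0.00534). BAT2 took its steepest step, 0.32, from 71.7° to 84.2°, and BAT1 its steepest, -0.61, from 96.6° to 109°, so that the rise of BAT2 came earlier by 2 samples.

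ILV3 fell by 0.94 (SE 0.22, limma adjusted p = 0.0074), ILV5 by 0.68 (SE 0.12, adjusted p = 0.00308) and ILV2 by 0.63 (SE 0.17, adjusted p = 0.0127). For none of the 3 did the earlier and later sets overlap, nor did they for LEU1, LEU2 or LEU4. Overlap was not counted over all genes, and any steady trend through these 8 samples would give none. LEU1 changed by -0.44 ± 0.09 (limma adjusted p = 0.00422) and LEU2 by -0.26 ± 0.08 (adjusted p = 0.0231). The call of LEU2 was lost when the sample at 46.8°, 59.2°, 71.7°, 122° or 134° was left out, with adjusted p from 0.0507 to 0.0703. LEU4 changed by 0.19 ± 0.05 (limma adjusted p = 0.0158), from signals of 12571 to 12814 before to 14483 to 14645 after. With quantile scaling nearly all of this lay in the step from 84.2° to 96.6°. Deposited signals went from 13528 to 14110 in that step, within 12484 to 13730 before and 14110 to 15006 after. With deposited values the change was 0.15 and did not pass (limma adjusted p = 0.163).

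The scaling of arrays bore on these sizes. The mean log2 signal of the 12 poly-A control probe sets spanned 1.62 between arrays, and scaling by them shifted the median change of all genes across the switch to -0.65. With that scaling 9 of the 10 transcripts fell, against 64.1% of all genes (5.5% rose), and 8 had a fitted range of at least 1, against 54.9% of all genes. The median fitted range was then 1.45 for the 10 and 1.07 for all genes. Relative to the median of all genes, BAT2 then changed by 0.46, LEU4 by 0.08, LEU9 by -3.06 and BAT1 by -1.29. The labels do not say whether these control transcripts were added in equal amount. LEU9 and BAT1 kept the largest ranges among the 10 with each of the 4 scalings, at 3.98 to 4.88 and 1.79 to 2.50.

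**Figure D3:**
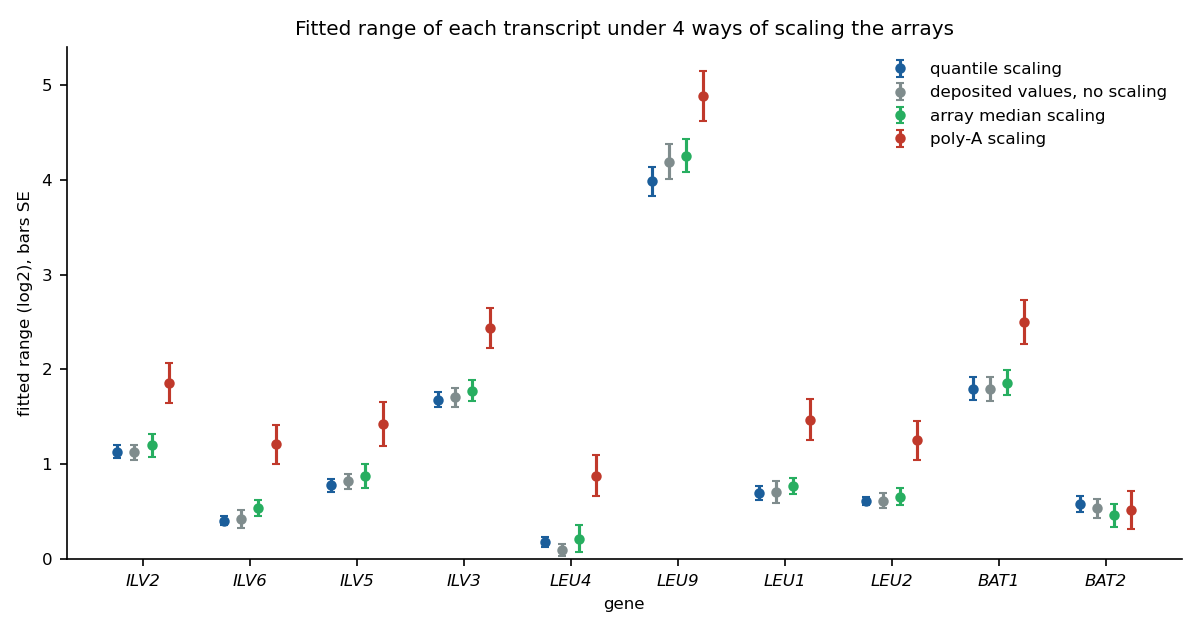
Fitted range on the log2 scale with its SE for each of the 10 transcripts under 4 scalings of the arrays: quantile, none, array median and poly-A controls. LEU9 lies highest with every scaling, from 3.98 to 4.88, and 8 transcripts lie at or above 1 with poly-A scaling.

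Several of these transcripts were among the brightest on the array, where signals can be compressed. The mean level of BAT2 was at percentile 99.8 of all genes tested, ILV5 at 98.2 and LEU4 at 97.5, whereas LEU9 was at 29.6. The median fitted range of the 538 brightest genes was 0.61, against 0.84 for all genes. The part of brightness in the small ranges of LEU4 and BAT2 was not tested.

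The profiles of ILV2, ILV3 and BAT1 were nearly parallel, with Pearson correlations over the 32 samples of 0.975 to 0.988. Among the 7 transcripts other than LEU4, BAT2 and ILV6 the 21 correlations lay between 0.597 and 0.988, with a median of 0.858. ILV6 correlated with these 7 less closely, from 0.142 with ILV5 and 0.237 with LEU2 to 0.690 with LEU9 and 0.746 with LEU1, and with it included the 28 correlations had a median of 0.828. LEU4 and BAT2 correlated with each other at 0.762 and with the other 8 at -0.878 to -0.371. The correlations are of quantile-scaled levels and were not computed with poly-A scaling. With the latter the fitted peaks of LEU4 and BAT2 lay at 61° and 76°, and those of the other 8 at 45° to 65°. All points share the arrays and their order in time, and the 3 groupings were made after the values were seen. The genes whose profile was most like the mean of the 10 scaled profiles were LYS4 (homoaconitase of lysine synthesis, r = 0.989), MEP1 (ammonium permease, 0.986), GRX3 (glutaredoxin, 0.982), the ribosomal protein genes RPS26B (0.981) and RPS16B (0.980), and HOM3 (aspartate kinase, 0.981). Nearest to LEU9 were APT1 (adenine phosphoribosyltransferase, 0.995) and FUR1 (uracil phosphoribosyltransferase, 0.992), and nearest to BAT2 were IDP3 (peroxisomal isocitrate dehydrogenase, 0.982) and NDE2 (external NADH dehydrogenase, 0.980).

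The last 3 samples had phase angles within 1.93° of those of the first 3 and showed how far levels came back after a turn. The mean difference, last minus first, was 0.33 ± 0.13 (SD, n = 3) for LEU9, 0.17 ± 0.04 for ILV2, 0.16 ± 0.03 for ILV3 and 0.15 ± 0.07 for BAT1. LEU2 differed by 0.04 ± 0.01. All 3 matched samples were higher in the later turn for each of these 5 genes and for LEU4. Such agreement in sign was not counted over all genes. ILV5 (-0.0035 ± 0.0163) and ILV6 (0.01 ± 0.05) came back to their earlier level within the spread of the 3 differences. BAT2 was lower by a mean difference of -0.12 ± 0.02 and LEU1 by -0.08 ± 0.06. The median absolute difference over all genes was 0.14. For LEU4 the difference, 0.11 ± 0.03, was 42.5% of its whole spread over the series, a larger share than for any other of the 10.

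The pathway is fed, drained and regulated by genes outside the 10, taken here from lists. The directions given for them across the switch hold for quantile, median and no scaling unless stated. With poly-A scaling none of the listed genes was called as rising, against 5.5% of all genes. Rises are then changes relative to the median of all genes. Of 6 genes of regulation and transport, 4 varied (limma adjusted p under 0.05), against 87.6% of all genes. Across the switch 3 of the 6 fell, against 29.5% of all genes. With the corrected autocorrelation 2 of the 6 varied, OAC1 and ILV1, against 60.1% of all genes. OAC1, the mitochondrial carrier that exports α-isopropylmalate, peaked at 26°, ranged over 2.66 ± 0.12 and fell by 1.81 (adjusted p = 0.00358). ILV1, the threonine deaminase that feeds the isoleucine branch, peaked at 41°, ranged over 2.13 ± 0.11 and fell by 1.56 (adjusted p = 0.00252). LEU3 had a range of 0.65 ± 0.13 and fell by 0.60 (adjusted p = 0.0255); its variation with phase was not called with the corrected autocorrelation (adjusted p = 0.0784). Nor was that of LEU5, a mitochondrial carrier linked to coenzyme A (range 0.84 ± 0.12, limma adjusted p = 3.193e-06, and 0.0915 with the corrected autocorrelation). The GCN4 transcript did not pass (range 0.10 ± 0.03, adjusted p = 0.0884), nor did that of the kinase gene GCN2 (0.34 ± 0.14, adjusted p = 0.146).

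**Figure D4:**
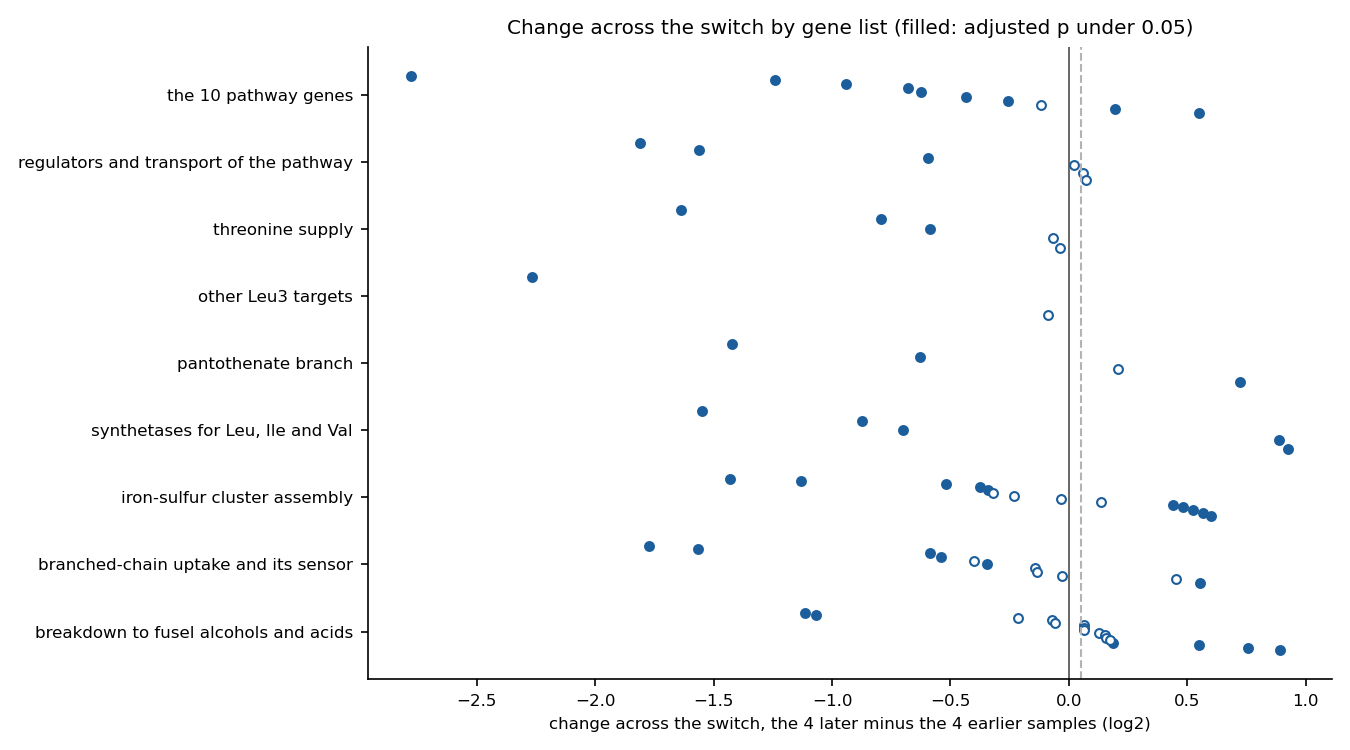
Change across the switch on the log2 scale, the 4 samples from 96.6° to 134° minus the 4 from 46.8° to 84.2°, 1 point per gene by gene list; filled points have a limma adjusted p under 0.05, the solid line is at 0 and the dashed line at 0.05, the median of all genes. LEU9 of the 10 pathway genes (-2.78) lies farthest to the left and ISM1 of the synthetases (0.93) farthest to the right.

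Threonine, the source of isoleucine, is made by 5 enzymes whose genes all varied, as did 87.6% of all genes. Across the switch 3 of the 5 fell, against 29.5% of all genes. With the corrected autocorrelation 4 varied, without HOM6, against 60.1% of all genes. HOM3 had the widest range, 2.89 ± 0.14, and THR1, encoding homoserine kinase, had 1.40 ± 0.06. HOM2 and HOM6, encoding the enzymes between them, ranged over 0.43 ± 0.05 and 0.32 ± 0.05 and peaked at 77° and 85°, later than HOM3 (35°) in the fit. Of the 2 other genes listed as Leu3 targets, MAE1, the mitochondrial malic enzyme that makes pyruvate, had a range of 3.33 ± 0.13 and fell by 2.27 (limma adjusted p = 0.00291). GDH1, encoding the NADP-dependent glutamate dehydrogenase, changed by -0.09 ± 0.10 (adjusted p = 0.437). In the pantothenate branch, which starts from the valine keto acid, PAN6 and PAN5 changed by -1.42 and -0.63, FMS1 rose by 0.72 (0.03 with poly-A scaling), and ECM31 did not pass (0.21, adjusted p = 0.07).

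The synthetases that charge tRNA with leucine, isoleucine and valine moved in both directions in this comparison. CDC60, ILS1 and VAS1, which serve the cytosol, changed by -1.55, -0.87 and -0.70 across the switch (limma adjusted p up to 0.00481). The mitochondrial NAM2 and ISM1 rose by 0.89 and 0.93 (adjusted p up to 0.00271), with fitted peaks at 140° and 152°; with poly-A scaling their changes were 0.22 and 0.23 and did not pass. VAS1 encodes both the cytosolic and the mitochondrial enzyme. Of 14 genes of iron-sulfur cluster assembly, on which the Ilv3 and Leu1 proteins depend, 5 fell and 5 rose. Of all genes 29.5% fell and 35.9% rose. The list's median change was -0.13. ATM1, the mitochondrial exporter of the pathway to cytosolic proteins, fell by 1.43, and ERV1, a sulfhydryl oxidase of the mitochondrial intermembrane space, rose by 0.60 (-0.03 with poly-A scaling).

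Among 11 genes of uptake of branched-chain amino acids and its sensor, 5 fell across the switch and 1 rose. Of all genes 29.5% fell and 35.9% rose. With deposited values 4 fell and 1 rose (27.8% and 29.8% of all genes). With median scaling 6 fell and 1 rose (31.5% and 34.9% of all genes). The permease genes AGP1, GNP1 and BAP3 changed by -1.77, -1.56 and -0.59. BAP2 rose by 0.55 (limma adjusted p = 0.0384; -0.08 with poly-A scaling), and its variation with phase was not called with the corrected autocorrelation (adjusted p = 0.438). Of 16 genes for breakdown to fusel alcohols and acids, 2 fell, 4 rose and 10 did not pass, with a median change of 0.09. These counts too stand against 29.5% of all genes falling and 35.9% rising. The call of ADH1 was lost with deposited values and with median scaling. With median scaling WAR1 fell as well (-0.27, limma adjusted p = 0.0363), so that 3 fell and 3 rose. The decarboxylase gene ARO10 rose by 0.89 (limma adjusted p = 0.0183) and the alcohol dehydrogenase gene ADH5 by 0.76 (0.30 and 0.19 with poly-A scaling, neither passing), whereas PDC6 fell by 1.11 and the acetyltransferase gene ATF2 by 1.07.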

How the data were processed

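Total RNA of 32 samples was hybridised to Affymetrix Yeast Genome 2.0 arrays, 1 array per sample, per the labels' protocols. The authors deposited 1 linear intensity per probe set and array. GCOS is named in the submitters' processing notes, without its algorithm or scaling. Gene names came from the platform annotation and RefSeq R64. A pseudocount of 1.9 (percentile 10 of all values) was added before log2, and arrays were quantile scaled over the 5498 S. cerevisiae probe sets, since array medians spanned 0.70. The brightest probe set stood for each gene, and the 5377 genes brighter on average than 4.44, percentile 95 of the probe sets for S. pombe, were tested with limma 3.58.1 in R 4.3.3. Curves with 2 harmonics of the phase angle were fitted after whitening with a common lag-1 autocorrelation of 0.376, the median of the residuals. Since fitting lowers that median, 0.80 was also used, a choice made after seeing the data. The SEs printed are those with 0.376. The 4 samples before and after the switch were compared by limma. Adjusted p-values are Benjamini-Hochberg over all genes, or over the 3 ratios. The number of arrays limits the precision. The fits were tested on simulated data with autocorrelated noise: whitening by the uncorrected median called far too many unchanging genes and the corrected value did not, and with strongly autocorrelated noise the comparison across the switch also called too many, so its p-values and those at 0.376 are too small to that extent. The genes, lists and switch were chosen with earlier results of these data known: named are the 10 members, all genes of the lists as far as they illustrate each, the 6 genes most like the mean profile and the 2 nearest to a member. Alternatives covered scaling, filter, pseudocount, probe sets, whitening, harmonics, covariates and samples. Promoter sequences were not analysed here.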

Additional observations from a re-analysis of the deposited data

Results flagged for a closer look

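In the comparison across the switch, 20 sets of 4 samples were looked at for a sample far from the other 3, and 3 sets held one; chance flags about 1 in 20. They were ILV3 before the switch (gap over range 0.848) and BAT1 before the switch (0.860), where in both genes the sample at 84.2° lay below the others, and ILV6 after the switch (0.853), where the sample at 96.6° lay above the others. These samples adjoin the switch on either side. Without the sample at 84.2° the change of BAT1 was -1.33 in place of -1.24, and without that at 96.6° the change of ILV6 was -0.16 in place of -0.12.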

How the results depend on the processing

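The calls and directions of LEU9, BAT1, ILV2, ILV3, ILV5 and LEU1, in the curves and across the switch, held under every alternative tried for them, as did those of the 3 ratios. With poly-A scaling 3446 genes were lower and 296 higher after the switch, in place of 1586 and 1931; 8 members had a range of at least 1, in place of 4, as did 54.9% of all genes, in place of 40.7%; 0 members were higher after the switch, in place of 2; and LEU4 (-0.568) and BAT2 (-0.193) changed sign, the first past the threshold, while ILV6 (-0.813) passed. With deposited values, with median scaling and with the 4 samples next to the switch left out, 1 member (BAT2) was higher after the switch. Leaving out each of the 8 samples in turn gave 1 to 2 members higher and 6 to 7 lower, 1235 to 1743 genes lower and 1544 to 2062 higher; 1 higher came without the sample at 122°. The cause of these differences was not tested. The variation of LEU4 with phase was also not called with deposited values, median scaling, either larger autocorrelation, 1 harmonic or odd time points. With the corrected autocorrelation 3229 genes varied with phase, and under the other alternatives 3635 to 5099 did. No paired analysis was possible because the series is 1 group of single samples.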
